A study of Mus musculus with 21 samples.

Results

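Ets1 and Fli1 are neighbouring genes on mouse chromosome 9 that encode transcription factors of the ETS family. The pair was examined through the open chromatin and TCF1 peaks that overlap a window of 480 kb, chr9:32220000-32700000 on build mm9. The window was set by position and not by any measured value. It held 30 DNase I hypersensitive sites (DHS) of 66499 in the all-lymphoid progenitor (ALP), 30 of 70088 in the early innate lymphoid progenitor (EILP) and 34 of 71973 in the innate lymphoid cell precursor (ILCP). It also held 2 of the 6679 TCF1 peaks of EILP. Where peaks of the 3 stages shared at least 1 bp they were merged, which gave 52 regions of 102384 in all. Fli1 lies on the minus strand at about 32230000 to 32350000 and Ets1 on the plus strand at about 32444000 to 32566000. The starts of both genes therefore face each other across a stretch of about 94 kb. These limits are approximate, no transcript annotation of mm9 was used, and exon, intron and promoter positions were not assigned.

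ETS proteins recognise DNA through a shared winged helix-turn-helix domain that binds a core GGA sequence. Ets1 is expressed in lymphocytes and is required for the normal number and function of mouse natural killer cells, and it acts in early T cell development. Fli1 is required for megakaryocyte and blood vessel development in the mouse, and it is part of the factor network of blood stem and progenitor cells. The adjacent arrangement of both genes is conserved among vertebrates. TCF1, encoded by Tcf7, is an HMG-box transcription factor of early T cell and innate lymphoid progenitors.

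Cells were sorted from bone marrow of C57BL/6 mice. ALP were Lin- Kit+ 2B4+ a4b7- with high Flt3 and with IL-7Ra, EILP were Lin- Kit+ 2B4+ a4b7+ Tcf7+ without Thy1, and ILCP carried Thy1 and IL-7Ra besides. The genotype was labelled Tcf7EGFP/+ for ALP and ILCP and Tcf7EGFPnull/+ for EILP, while the EILP source name and all 3 pooled files say WT. If the genotype labels hold, EILP alone carried a Tcf7 null allele, and stage and genotype cannot be told apart in any comparison with EILP. DNase-seq was made from 300 cells per library with 3 libraries per stage, and CUT&RUN from 500 EILP per library, with 6 TCF1 and 4 IgG libraries, both including technical repeats. A further 2 CUT&RUN libraries had conflicting antibody labels and were put in no group, although their library number is part of the control of the TCF1 calls. Age is not given in the labels used here, and gene expression was not measured in these files.

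Each list was called on 1 pooled tag file, which held 12420429 tags for ALP, 11236009 for EILP, 12681410 for ILCP and 2418839 for TCF1. No value has a replicate error and no test between stages was possible. The summit height of a peak is its number of overlapping extended tags. Depth-scaled height is that number per 1000000 tags of the pooled file. Intervals are 95% intervals, Wilson for shares, exact Poisson for heights and exact Clopper-Pearson for ratios of heights. They cover counting error only and leave out the variation between the pooled libraries. Those of heights and ratios take tags as independent, which amplified reads without molecular identifiers need not be. The summit is the highest point of each peak, so height ratios also carry selection. Fold enrichment is the authors' value of the summit height against the local background, with 1 tag added to each, and it was used within 1 list only.

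Open sites were denser here than in a typical stretch of the genome at all 3 stages. Windows of the same width laid end to end over the genome had a median of 7 peaks in ALP, 7 in EILP and 9 in ILCP, against 30, 30 and 34 at Fli1 and Ets1. As many peaks or more were present in 12.3%, 14.2% and 10.2% of the 5508 genomic windows, in the same order of stages. TCF1 had 2 peaks here, against a median of 0, and 26.4% of genomic windows held as many or more. The DHS peaks were of ordinary size. Their median height in the window was 16 tags in ALP, 13.5 in EILP and 15 in ILCP, beside 14, 13 and 13 over the whole lists, and their median fold enrichment was 6.74, 5.85 and 6.54, beside 6.95, 6.87 and 6.91.

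**Figure D1:**
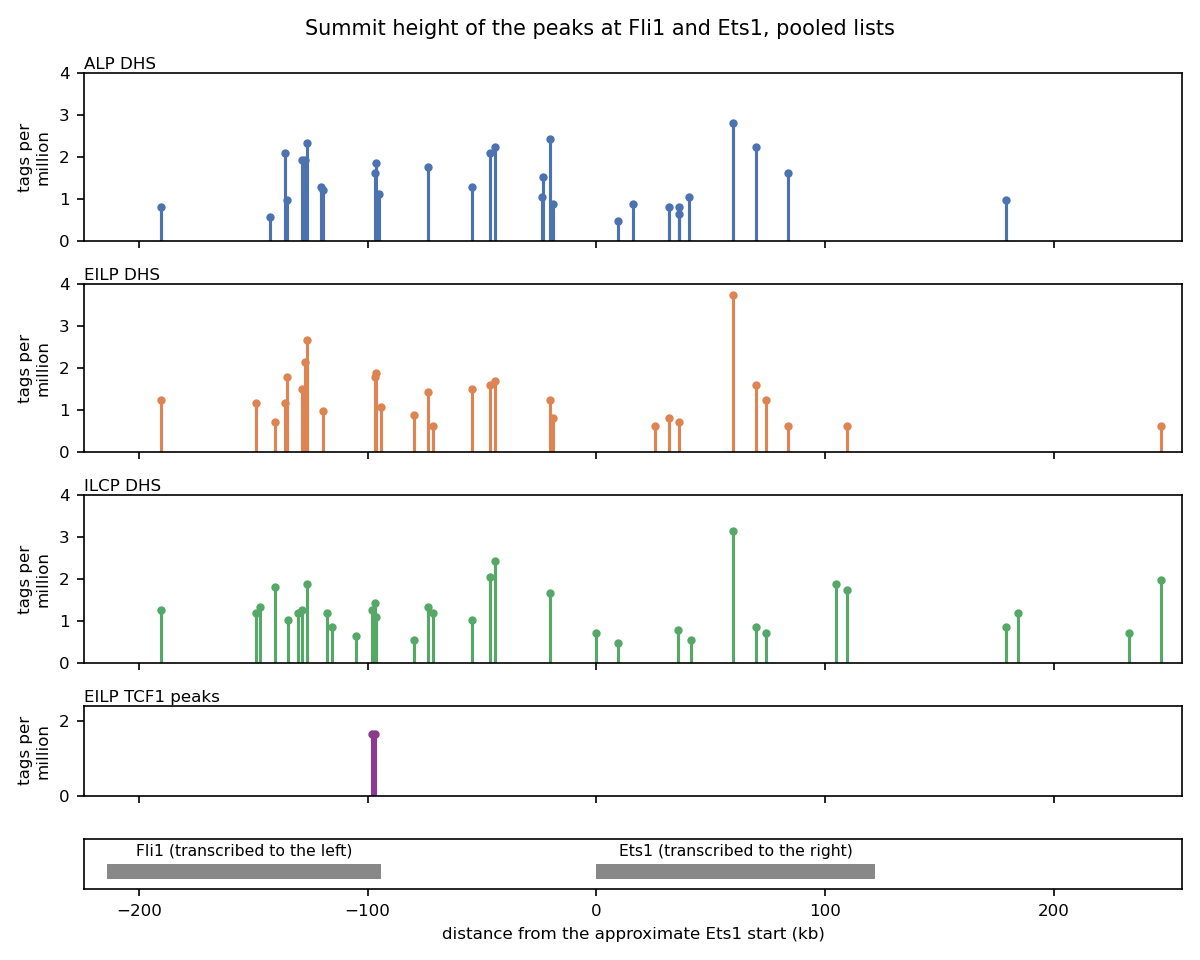
Depth-scaled summit height of each DHS region (y axis) against distance from the approximate Ets1 start in kb (x axis), for ALP, EILP and ILCP from top to bottom, followed by the 2 TCF1 peaks of EILP and the approximate gene limits. The tallest bar in each DHS panel is the Ets1 region at 59.6 kb, and both TCF1 peaks stand near the Fli1 start.

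Open regions were spread unevenly over the window. Fli1 held 22 of the 52 regions, or 18.3 per 100 kb, the stretch between the genes 11 (11.7 per 100 kb), Ets1 15 (12.3 per 100 kb) and the 134 kb beyond Ets1 only 4 (2.99 per 100 kb). No region lay in the 10 kb beyond the end of Fli1. Between the last region at Ets1 and the next one past the gene, 69.3 kb held no DHS at any stage, and a 41.4 kb stretch in the far part of Fli1 held none either.

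Of the 52 regions, 30 were open in ALP (57.7%, 44.2 to 70.1, against 63.9% of all merged regions), 29 in EILP (55.8%, 42.3 to 68.4, against 67.4%) and 34 in ILCP (65.4%, 51.8 to 76.8, against 69.5%). Regions open at all 3 stages made up 12 of the 52, or 23.1% (13.7 to 36.1), against 39.0% of all merged regions of the genome. The interval lies below the genome-wide share, but it treats regions as independent and was not a test. The count also depends on the overlap of 1 bp. Where absence meant no peak within 500 bp, 17 of the 52 were open at all 3 stages, and the genome-wide share was not worked out that way. Regions found in ILCP alone numbered 13, which is 38.2% (23.9 to 55.0) of the 34 ILCP regions against 24.7% of all ILCP regions. A further 8 regions were found in ALP alone (15.4%, against 11.3% of all merged regions) and 8 in ALP and EILP (15.4%, against 9.52%). EILP and ILCP shared 7 (13.5%, against 9.27%), 2 were in EILP alone (3.85%, against 9.65%) and 2 in ALP and ILCP (3.85%, against 4.09%). Each of these genome-wide shares lies inside the interval of the window. The 12 shared regions were among the higher ones in EILP. There all 12 reached the list's median height, against 3 of the 8 regions shared with ALP alone and 2 of the 7 shared with ILCP alone, and 9 of the 12 reached its median fold enrichment. Of the whole EILP list, 52.7% of peaks reached the median height and 51.5% the median fold. The same order of patterns held over the genome, where the median EILP height was 17 tags for regions open at all 3 stages. It was 11 for those shared with ALP alone and 10 for those shared with ILCP alone. In the window these medians were 18, 10 and 8 tags.

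**Figure D2:**
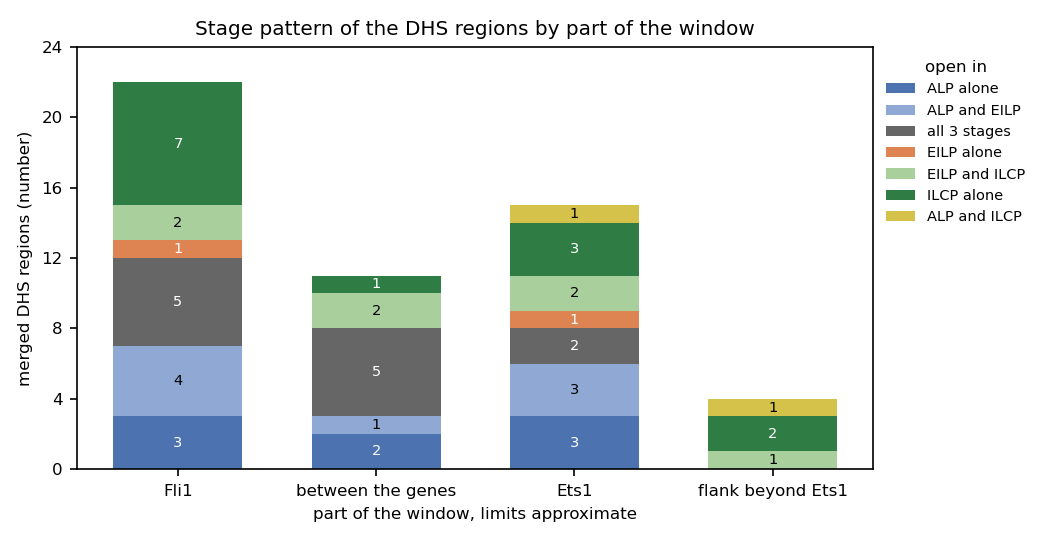
Number of merged DHS regions (y axis) in each part of the window (x axis), split by the stages in which a peak was called. Regions open at all 3 stages are 5 of the 11 between the genes, against 39.0% of merged regions over the genome. Regions of ILCP alone are 7 of the 22 in Fli1, against 17.2%.

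At the step to EILP, 9 of the 29 EILP regions (31.0%, 17.3 to 49.2) were gained, that is absent from the ALP list, against 28.1% of EILP regions over the genome. Of the 30 ALP regions, 10 (33.3%, 19.2 to 51.2) were lost, against 24.1%. At the step to ILCP, 15 of 34 regions (44.1%, 28.9 to 60.5) were gained, against 30.6%, and 10 of the 29 EILP regions (34.5%, 19.9 to 52.7) were lost, against 28.4%. All 4 genome-wide shares lie inside the intervals of the window. Gains at ILCP were spread over 7 regions of Fli1, 4 of Ets1, 3 beyond Ets1 and 1 between the genes.

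The strongest site of the window lay inside Ets1 at all 3 stages. This region, chr9:32503333-32503772, stands about 59.6 kb downstream of the approximate gene start. It had 35 tags at the summit in ALP, 42 in EILP and 40 in ILCP. Its fold enrichment was 12.9, 15.6 and 13.8, at the 90.1, 96.5 and 92.3 percentile of the 3 lists. Its depth-scaled height in EILP was 1.33 times that in ALP (0.827 to 2.14) and in ILCP 0.844 times that in EILP (0.533 to 1.33). It was thus open throughout, with no difference between stages beyond counting error. Ets1 has several annotated transcripts in RefSeq, and whether one of them begins at this site was not checked.

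The Ets1 gene before this site held 9 weaker regions, with heights between 6 and 13 tags. Of these, 6 were open in ALP, 3 in EILP and 3 in ILCP, and none at all 3 stages. Over the genome, 63.9% of merged regions were open in ALP, 67.4% in EILP, 69.5% in ILCP and 39.0% at all 3 stages. This stretch was delimited after the values were seen, so its counts are a description. Examples of its regions are chr9:32484284-32484424 with 13 tags in ALP, chr9:32459852-32460115 with 11 tags in ALP, and chr9:32475759-32475908 with 9 tags in EILP, against 10 in ALP. Lower sites were chr9:32453206-32453354, open in ALP and ILCP with 6 tags each, and chr9:32469479-32469582, open in EILP alone with 7 tags. About 36.1 kb from the start, 3 regions stood 13 and 6 bp apart, 1 of ILCP alone, 1 of ALP and EILP and 1 of ALP alone. Their separation depends on where the peak edges were drawn. With peaks merged within 200 bp they form 1 region open at all 3 stages, and the window then has 13 such regions in place of 12. The region nearest to the approximate Ets1 start was chr9:32443603-32443821, found in ILCP alone with 9 tags.

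Past the strongest site, 2 regions within Ets1 were lower at later stages. The first, chr9:32513420-32514047, 69.7 kb into the gene, had 28 tags in ALP, 18 in EILP and 11 in ILCP. Its depth-scaled height was 0.711 times as high in EILP as in ALP (0.370 to 1.33), 0.541 times as high in ILCP as in EILP (0.231 to 1.21), and 0.385 times as high in ILCP as in ALP (0.173 to 0.797). The intervals of both single steps include 1, and that of ILCP over ALP lies below 1. The second, chr9:32527750-32528032, at 83.9 kb, had 7 tags in EILP, against 20 in ALP, a ratio of 0.387 (0.138 to 0.953), and no peak in ILCP. Between them, chr9:32517937-32518284 was absent from ALP and had 14 tags in EILP and 9 in ILCP, a ratio of 0.570 of ILCP over EILP (0.217 to 1.41).

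In the far part of Ets1 and the stretch beyond it, ILCP had the most peaks. All 6 regions more than 100 kb from the approximate Ets1 start were open in ILCP, 2 were open in EILP and 1 in ALP. Over the genome, the shares of merged regions open were 69.5% in ILCP, 67.4% in EILP and 63.9% in ALP. The boundary of 100 kb was chosen after the values were seen, so these counts are a description. Inside the gene, chr9:32548436-32548921 had 24 tags in ILCP and no peak in ALP or EILP, and it was the region of ILCP alone with the highest fold enrichment, 9.43. Next to it, chr9:32553584-32553844 had 22 tags in ILCP, against 7 in EILP, a ratio of 2.78 (1.15 to 7.72), and none was called in ALP. Peaks as low as 6 tags in ALP and 7 in EILP were called elsewhere within Ets1. Tag counts at sites without a called peak are not in these lists.

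Beyond Ets1, chr9:32690678-32691042, about 247 kb from the gene's start, showed the largest ratio of the window. It had 25 tags in ILCP, against 7 in EILP, a ratio of 3.16 (1.33 to 8.66), with no peak in ALP. The region chr9:32628039-32628249 had 15 tags in ILCP alone and chr9:32676857-32677123 had 9 tags in ILCP alone. Only chr9:32623096-32623361 of this stretch was open in ALP, with 12 tags there and 11 in ILCP and no peak in EILP. Whether these distal sites act on Ets1 or on another gene was not measured.

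Between the genes, 5 of 11 regions were open at all 3 stages, against 5 of 22 in Fli1, 2 of 15 in Ets1 and 0 of 4 beyond it, a difference that was not tested. The share over all merged regions of the genome was 39.0%, and these counts depend on the approximate gene limits. RefSeq lists 2 long non-coding RNA genes between Fli1 and Ets1 on build GRCm38.p6, Gm31871 and Gm31928, and the regions were not placed relative to them. The sites chr9:32397588-32397798 and chr9:32399427-32399691 lie about midway between both gene starts, 46.3 and 44.4 kb upstream of Ets1. At the first, the summit held 26 tags in ALP, 18 in EILP and 26 in ILCP. At the second, it held 28 tags in ALP, 19 in EILP and 31 in ILCP. Both were lowest in EILP, at 0.765 (0.395 to 1.45) and 0.750 (0.396 to 1.39) times the depth-scaled ALP height, and these differences were within counting error. Together with chr9:32389517-32389808 and chr9:32370114-32370416, they make up the window's 4 regions of highest EILP fold enrichment after the Ets1 site. Those 2 had 16 and 22 tags in ALP, 17 and 16 in EILP, and 13 and 17 in ILCP, so these heights also stood close together.

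Closer to Ets1, 4 ALP regions stood 18.8 to 23.7 kb upstream of its start, and 2 of the 4 had a peak in EILP. Over the genome, 24.1% of ALP regions had none in EILP. This group was delimited after the values were seen. The region chr9:32423602-32423892 was open at all 3 stages, with 30 tags in ALP, 14 in EILP and 21 in ILCP. Its depth-scaled EILP height was 0.516 times that of ALP (0.253 to 1.00) and its ILCP height 1.33 times that of EILP (0.645 to 2.83). Its neighbour chr9:32425069-32425250 had 9 tags in EILP, against 11 in ALP, and no peak in ILCP. The other members, chr9:32420167-32420381 with 13 tags and chr9:32420606-32421057 with 19 tags, were found in ALP alone. The local background that the peak caller used there was 2.29 to 2.44 tags in ALP and 0.990 to 1.01 tags in EILP, so it moved with the peaks, and its part in their calls was not tested.

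At the Fli1 start, 5 regions lay within 5 kb, a limit chosen after the values were seen. Of these, 2 were open at all 3 stages, against 39.0% of all merged regions of the genome. The region chr9:32346873-32347260 had 20 tags in ALP, 20 in EILP and 18 in ILCP, and chr9:32347708-32348017 had 23, 21 and 14 in the same order. The lower ILCP height of the second was within counting error, with a ratio of 0.591 over EILP (0.278 to 1.22). The other 3 were each found at 1 stage. They were chr9:32348932-32349250 in ALP with 14 tags, chr9:32349785-32349889 in EILP with 12 tags, which is the region nearest to the approximate start, and chr9:32345835-32346031 in ILCP with 16 tags. These single-stage calls were weak, with a fold enrichment of 4.40, 3.74 and 4.70. That of the 2 regions open at all 3 stages was 4.10 to 7.04, with the lowest in ILCP at chr9:32347708-32348017.

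Within the body of Fli1, 16 regions lay 5 to 60 kb downstream of the start, 8 of them open in ALP, 8 in EILP and 10 in ILCP. Of the 16, 2 were open at all 3 stages. Over the genome, 63.9% of merged regions were open in ALP, 67.4% in EILP, 69.5% in ILCP and 39.0% at all 3 stages. These limits were chosen after the values were seen, so the counts are a description. The higher of them was chr9:32317392-32317729, with 29 tags in ALP, 30 in EILP and 24 in ILCP. Its neighbour chr9:32316331-32316584 had 24 tags in EILP and 24 in ALP and no peak in ILCP. At other sites, height ratios of EILP over ALP lay on either side of 1. At chr9:32307746-32307983 EILP had 13 tags, against 26 in ALP, with no peak in ILCP, and the ratio of 0.553 was within counting error (0.261 to 1.12). At chr9:32308532-32308718, 548 bp away, EILP had 20 tags, against 12 in ALP, again with no peak in ILCP. The ratio of 1.84 was also within counting error (0.858 to 4.13). An ILCP peak of 13 tags, chr9:32309102-32309248, stood 383 bp from this region, so the region's absence from ILCP depends on the overlap of 1 bp. Where absence meant no peak within 500 bp, 8 regions of the window in place of 10 were lost at ILCP. Regions of ALP alone included chr9:32323544-32323706 with 16 tags.

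For 1 Fli1 region, the interval of ILCP over EILP lay above 1. This site, chr9:32303292-32303628, 46.5 kb into the gene, had 23 tags in ILCP, against 8 in EILP, a ratio of 2.55 (1.10 to 6.59), and no peak in ALP. The nearby chr9:32296861-32297163 had 17 tags in ILCP alone. The 3 regions of the window that were more than 2-fold higher in ILCP than in EILP were all absent from ALP. In EILP they had 7 or 8 tags, where the lowest EILP peak of the window had 7. How often such regions were absent from ALP over the genome was not worked out. The farthest Fli1 region, chr9:32253441-32253637, 96.5 kb from the start, was open throughout with 10 tags in ALP, 14 in EILP and 16 in ILCP, and its ILCP height was 1.57 times that of ALP (0.669 to 3.86).

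**Figure D3:**
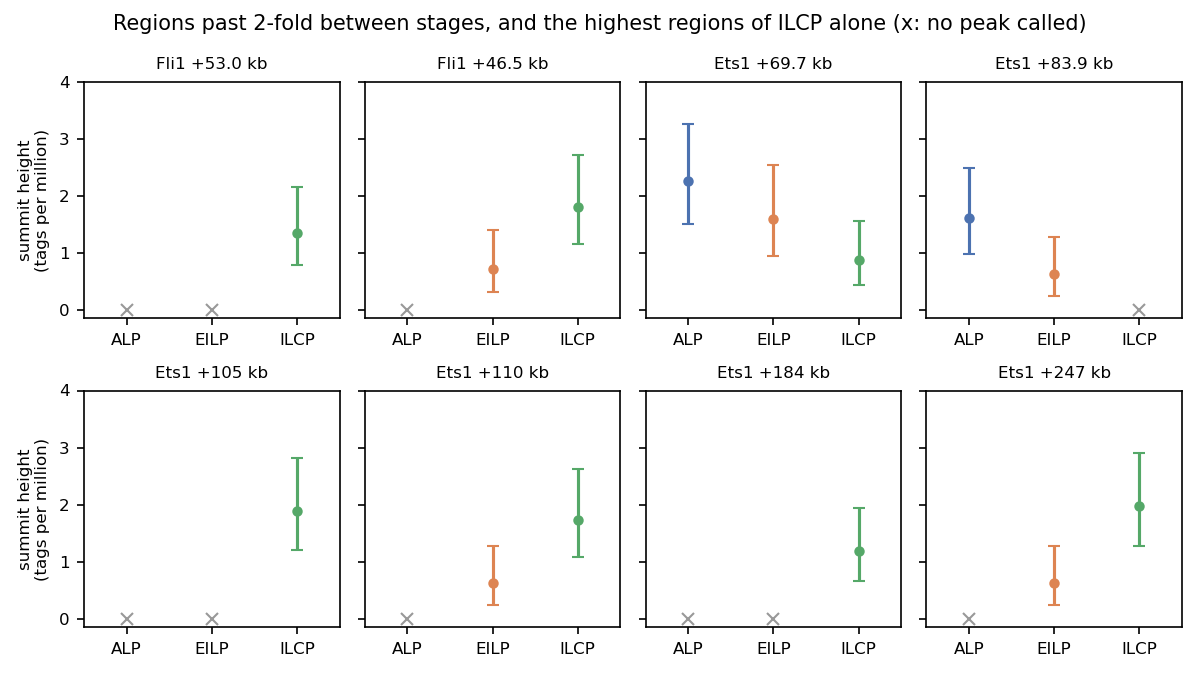
Depth-scaled summit height (y axis) by stage (x axis) for the regions with a change past 2-fold between stages and the 3 regions of ILCP alone with the highest fold enrichment, named by distance from the nearest approximate gene start. Bars are exact Poisson 95% intervals of 1 pooled list, and a grey x marks a stage in which no peak was called, not a height of 0.

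Changes past 2-fold in height were counted over all regions open at both stages of a step. From ALP to EILP, 0 of 20 regions were more than 2-fold higher, against 4.40% over the genome, and 1 of 20 was more than 2-fold lower, against 1.94%. From EILP to ILCP, 3 of 19 were higher (15.8%, 5.52 to 37.6), against 2.39%, and 0 of 19 lower, against 5.22%. The interval of the 3 lies above the genome-wide share, but it treats regions as independent and was not a test. From ALP to ILCP directly, 0 of 14 were higher, against 4.22%, and 1 of 14 lower, against 5.71%. For the counts of 0, shares of up to 16.1% (0 of 20), 16.8% (0 of 19) and 21.5% (0 of 14) lie inside the intervals. The median ratio was 0.950 for EILP over ALP, beside 1.11 over the genome, 0.941 for ILCP over EILP, beside 0.960, and 0.846 for ILCP over ALP, beside 1.04. Of the 14 regions open in both ALP and ILCP, 11 were lower in ILCP. The interval of 1 of them lay below 1, and all other intervals included 1. The share of all such regions of the genome that were lower in ILCP was not worked out. The intervals of single ratios, 20, 19 and 14 in the 3 comparisons, were not corrected for their number.

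**Figure D4:**
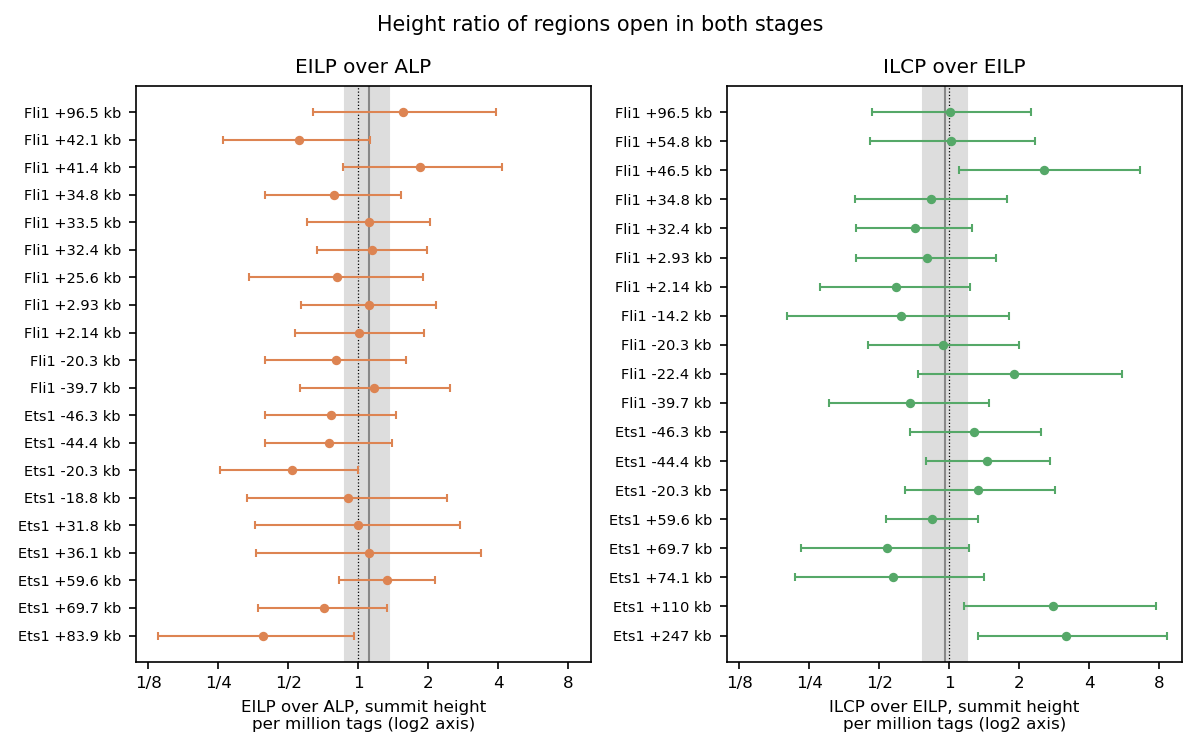
Ratio of depth-scaled summit heights (x axis, log2 scale) for each region open at both stages of a step, EILP over ALP on the left and ILCP over EILP on the right, ordered along the chromosome from Fli1 to past Ets1. Bars are exact Clopper-Pearson 95% intervals, the grey line is the median and the grey band the middle 50% of all such regions in the genome, and the dotted line marks 1. The interval lies above 1 for 3 regions on the right and below 1 for 1 region on the left.

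The local background differed between both genes. Worked out from height and fold enrichment, it had a median of 2.13 tags for the ALP peaks of Fli1, 2.10 in EILP and 2.02 in ILCP, beside 1.00, 0.940 and 1.00 over the lists. Of the Fli1 peaks, 6 of 12 in ALP, 6 of 12 in EILP and 7 of 14 in ILCP stood above the 90th percentile of background of their list, while 0 of the 9, 9 and 8 Ets1 peaks did. Between the genes, 4 of 8 peaks in ALP, 0 of 8 in EILP and 0 of 8 in ILCP stood above it. Among the peaks of the window above that percentile, the lowest had 11 tags in ALP, 12 in EILP and 13 in ILCP. At any background, the lowest Fli1 peak had 7 tags in ALP, 8 in EILP and 8 in ILCP, beside lows of 6, 7 and 6 tags in Ets1. Fli1 peaks ranked lower by fold enrichment than by height. Of the 14 ILCP peaks of Fli1, 12 reached the list's median height and 4 its median fold. The part of the local background in the stage patterns of Fli1 was not tested.

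Both TCF1 peaks lay near the Fli1 start and none at Ets1, between the genes or beyond Ets1. They were at chr9:32346070-32346169 and chr9:32346871-32347055, with summits 922 bp apart and 3.90 and 2.98 kb downstream of the approximate start. Each had 4 tags at the summit, with a fold enrichment of 4.26 and 4.20 and a q-value of 0.00442 and 0.00629. These are weak peaks of a shallow list: their fold stood at the 13.5 and 11.6 percentile, and 34.0% of all TCF1 peaks had 4 tags or fewer. Whether the signal of the conflicting libraries in the control lowered other sites of the window below the threshold was not tested.

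The second of these peaks overlapped the region open at all 3 stages 2.93 kb from the Fli1 start. Its summit lay 12 bp from the DHS summit of ALP, 53 bp from that of EILP and 16 bp from that of ILCP. The first overlapped no DHS. It ended 703 bp from the nearest EILP peak and 735 bp from the nearest ALP peak, but 38 bp from the ILCP peak of 16 tags at chr9:32345835-32346031. TCF1 was measured in EILP, where no DHS was called at that site. In all, 1 of the 29 EILP regions overlapped a TCF1 peak (3.45%, 0.611 to 17.2), against 5.62% over the genome, and 1 of the 52 merged regions (1.92%, 0.340 to 10.1), against 4.16%. No TCF1 peak overlapped any of the 15 regions gained at ILCP, the strongest Ets1 site or the sites more than 100 kb past the Ets1 start. With 4.16% of all merged regions overlapping a TCF1 peak, none among so few says little. The share among regions gained at ILCP over the genome was not worked out.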

How the data were processed

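The 4 deposited peak lists were used, each called on tags pooled over the libraries of its group. Per the file headers, the authors used MACS version 2.1.1.20160309 with a q cutoff of 0.05, tags of 50 bp, fragments of 100 bp and 1 tag kept per position. Local background was taken over 10 kb, for TCF1 also over 1 kb and with a pooled IgG file of 2919489 tags as control. The library number of the 2 CUT&RUN libraries with conflicting antibody labels is part of that control, so it may not be IgG alone. The DNase-seq calls had no control. Per the submitters' processing notes the positions are on mm9, and the aligner is not given in the sources used here. The authors' files give the pileup signal at the summit in tags, fold enrichment as a ratio, and −log10 of the q-value.

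Peaks overlapping the window by 1 bp were taken, and DHS lists were merged where peaks shared 1 bp. A region's height is that of its highest peak in a list. Heights were scaled to tags per 1000000 tags of the pooled file, and a change was called past 2-fold. Local background was worked out as height plus 1 over fold enrichment, minus 1. Peak length served to measure covered sequence. Counting and ratios were tested on simulated lists. Calculations used Python 3.11.15, pandas 2.3.3 and SciPy 1.17.1.

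Named were, by rule, regions with a TCF1 peak, the 5 of highest EILP fold enrichment, the 3 highest of each pattern other than open in all 3 stages, those past 2-fold in height and those nearest to the gene starts. Other regions named were added after their values were seen. The window, lists and rules were chosen with earlier results of these data known. Replicate error was not available, because libraries were pooled. Sequences, motifs, other ETS family genes and genes of similar pattern were not analysed here, since they need an mm9 genome or annotation.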

Additional observations from a re-analysis of the deposited data

How the results depend on the processing

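No paired analysis was possible because each peak list pools its libraries, and no library could be left out. Of 63 alternative values, 47 stayed within 1.5 times the reported count. Restricting every list to peaks at or above its median fold left 14 ALP, 11 EILP, 16 ILCP and 0 TCF1 peaks in the window, and 24 regions. Of these, 7 were open in all 3 stages, 3 were gained and 6 lost at EILP, and 8 were gained and 3 lost at ILCP. Counting TCF1 summits within 200 bp of a region gave 2 regions with TCF1 in place of 1. With heights scaled by the median of shared regions, 2 regions in place of 1 were more than 2-fold lower in EILP than in ALP. At a limit of 1.5-fold, 2 regions were higher and 3 lower in EILP than in ALP, and 4 were higher and 4 lower in ILCP than in EILP. The genome-wide shares at that limit were not worked out. Moving the gene limits 10 kb inwards put 17 regions between the genes in place of 11. Subtracting the local background, an alternative chosen after seeing the data, kept all 4 height counts within 1.5 times. Depth limits the TCF1 values, since each peak of the window rests on 4 tags, and the calls of absence, since tag counts outside called peaks are not in the lists.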

Other observations

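Outside the window, the 100 kb next to it on the Fli1 side held 9 DHS peaks in ALP, 9 in EILP and 8 in ILCP, with the highest at 23, 21 and 29 tags. The 100 kb on the Ets1 side held 5 in ALP, 3 in EILP and 3 in ILCP, with the highest at 27, 20 and 27 tags. Neither side held a TCF1 peak.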
